A study of Mus musculus with 8 samples.

Results

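The genes examined here were 40 markers of the tissues from which 4 mouse iPSC lines had been reprogrammed, 10 each for blood, adipose tissue, epidermis and stomach, among 22878 gene entries measured. They were chosen by name, as genes known from these tissues, and all 40 were found, 39 under their own name and Spi1 under its older symbol Sfpi1. The cells compared by RNA-seq were R1, a mouse ESC line of embryonic origin, and 4 secondary iPSC lines, in order to compare reprogrammed cells of different origin with each other and with ESCs. Line 16-6 came from hematopoietic progenitors taken from bone marrow with c-Kit beads, line 32 from adipocyte progenitors of the inguinal fat, S8 from epidermal cells of the skin and T2 from epithelial cells of the stomach. All donor cells came from young adult all-iPSC mice, whose cells carry doxycycline-inducible Oct4, Sox2, c-Myc and Klf4, and doxycycline had been withdrawn before the lines were picked. Each origin was represented by 1 line, and the cells were cultured on a feeder layer of inactivated mouse embryonic fibroblasts. The question was whether the markers of each tissue were highest in the line of that tissue, called its own line below. No parental tissue was measured in these libraries.

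A differentiated cell type is recognised by genes that its transcription factors keep active and that other cells keep silent. In blood these include the factors Runx1, Tal1, Spi1 and Gata1 and the proteins of white and red cells, and in fat the factor Pparg and the proteins that take up and store fatty acids. The epidermis is held together by desmosomes and sealed by a cornified envelope, and the stomach lining secretes mucins, acid, pepsinogen and peptide hormones. Reprogramming shuts such genes and reopens the network of pluripotency factors, and expression left over from the donor cell is known as transcriptional memory. Pluripotent cells have some epithelial character, so adhesion genes of the epidermis are not foreign to them.

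Of the 8 libraries, 2 each were replicates of R1, 16-6 and 32, and S8 and T2 were sequenced as 1 library apiece. Levels are given as FPKM, the number of fragments for each kilobase of a transcript and each 1000000 fragments of the library, all divided by 12725.7 so that the median library totalled 1000000. The fragments implied by the confidence limits of the deposited values came to between 15.5 and 16.7 per library in units of 1000000, and a value of 0 allows an expected number of up to 3 fragments. The study itself lists far more uniquely mapped reads for S8 and T2 than for the other libraries, at a lower mapped percentage. For S8 and T2, a difference in sequencing thus cannot be told apart from a difference between the lines. For genes with whole fragment numbers, the variance between replicates was 1.34 times the counting variance in R1, 1.08 times in 16-6 and 1.29 times in 32. Replicates thus differed by little more than counting noise. The methods of the study call them biological replicates, while the labels do not name separate cultures, and the adjusted p-values below measure the spread between these libraries. All 10 pluripotency markers on a list that included Oct4 (Pou5f1), Nanog and Sox2 were above 1 in every library, with sums between 2692 and 5421. In bulk RNA, fewer cells expressing a gene and less RNA per cell cannot be told apart.

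Of the 40 genes, 20 reached a level of 1 in any library and entered the test, 7 for blood, 5 for adipose tissue, 6 for epidermis and 2 for stomach. Of the other 20, 4 stomach genes were at 0 in all 8 libraries, and the largest number of fragments behind any value was 45, for Csf1r in R1. A level of 10 was reached by 6 genes, namely Lyz2, Laptm5, Fabp4, Dsp, Perp and Sfn. Spi1, Itgam, Fabp4 and Cd36 reached 1 in R1 alone, so their lower values in the iPSC lines follow in part from how genes entered the test.

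**Figure D1:**
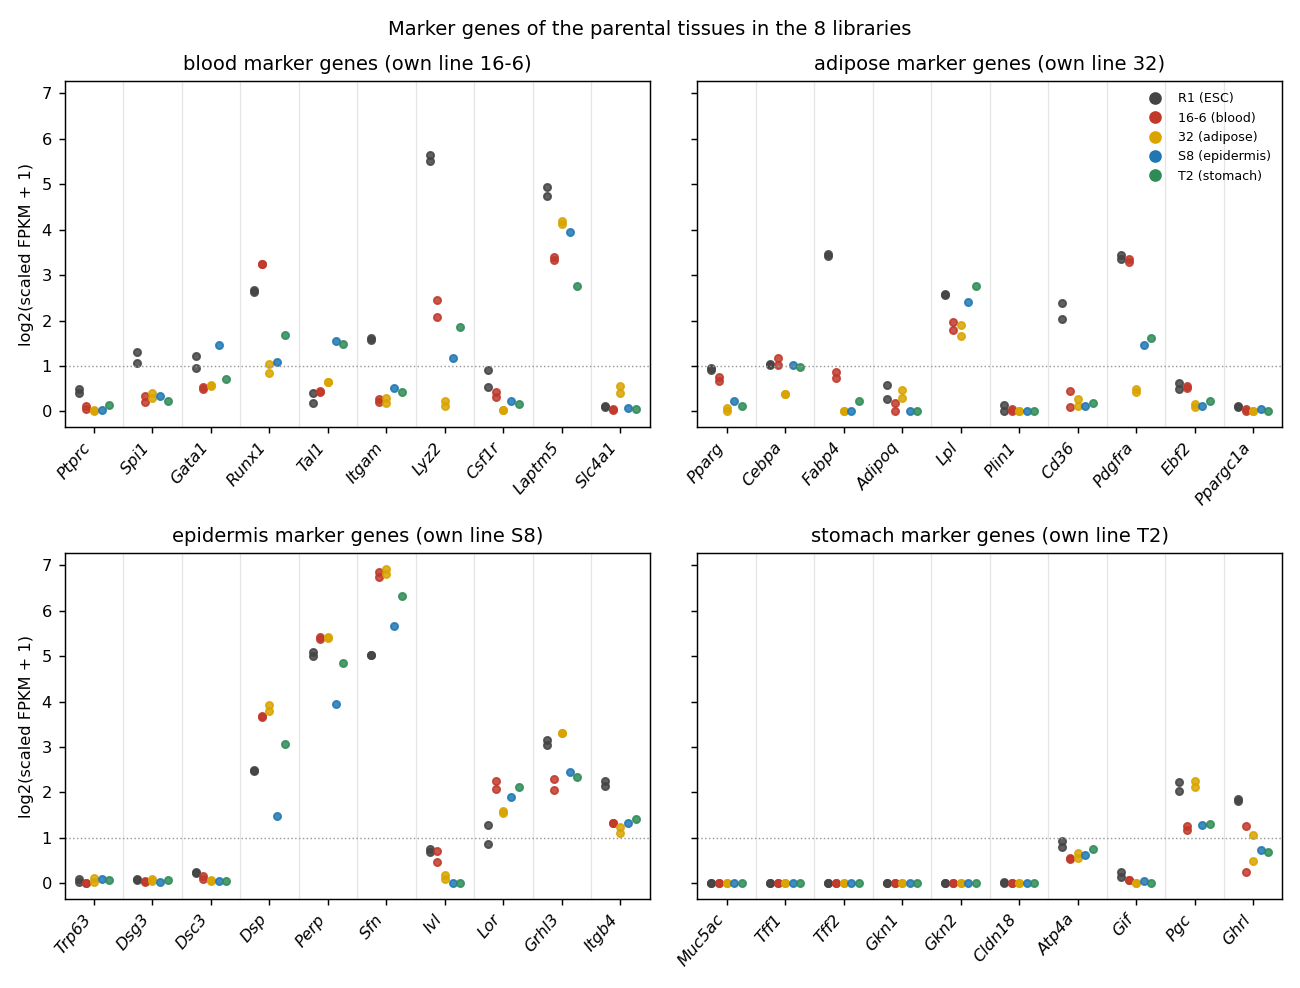
Levels of the 40 marker genes, as log2(scaled FPKM + 1) on the vertical axis, in each of the 8 libraries, with 1 point per library, 1 panel per tissue and colours for the lines. The dotted line marks a level of 1 on this log2 scale. Sfn has the highest points, 6 of the 10 stomach genes lie on or near 0, and Lyz2, Fabp4 and Cd36 are highest in R1.

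The share of markers highest in their own line was slightly above that of all genes for blood and stomach, and below it for adipose tissue and epidermis. With 10 genes per tissue, each difference rested on few genes, and no excess or lack can be read from it. Among the 4 iPSC lines, 3 of the 10 blood genes were highest in 16-6 (Runx1, Lyz2 and Csf1r), against 22.8% of all genes. Line 32 was highest for 1 of the 10 adipose genes, Adipoq, against 20.4% of all genes. S8 was highest for 1 of the 10 epidermal genes, Trp63, against 25.6% of all genes, and T2 for 2 of the 10 stomach genes, Muc5ac and Atp4a, against 13.8% of all genes. The values of Adipoq, Trp63 and Muc5ac that decided these counts rested on 5 fragments or fewer. Muc5ac had 0.0069 in T2, the same value as in the second library of 32. Adipoq, Trp63, Muc5ac and Atp4a did not reach a level of 1 in any library. In lines of other origin, 7 of the 10 adipose genes were highest in 16-6, against 22.8% of all genes, and 5 of the 10 epidermal genes in 32, against 20.4%. Some of these rested on few fragments too, with at most 7.1 in 16-6 for Plin1, Fabp4 and Cd36 and at most 3.0 in 32 for Dsg3. For Perp and Sfn the libraries of 32 and 16-6 overlapped, and for Cebpa those of 16-6 overlapped with S8. These are counts without a test.

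The mean over each set of 10 genes, on the scale of log2(scaled FPKM + 1), was then compared between lines. The blood mean was 1.05 and 1.12 in the libraries of 16-6, 0.75 and 0.77 in 32, 1.04 in S8 and 0.95 in T2. It exceeded the mean of the other iPSC lines by 0.17, with a replicate SD of 0.0375 (from 16-6 and 32, n = 2 each), while R1, at 1.83 and 1.86, was above every iPSC library. The median of the 10 differences of 16-6 was -0.094, on the other side of 0, and the mean was 0.078 after quantile normalization and 0.01 with each gene scaled to unit SD. The adipose mean was lowest in its own line, at 0.32 and 0.36 in 32, against 0.91 and 0.85 in 16-6, 0.54 in S8 and 0.61 in T2, and the difference was -0.34 (replicate SD 0.0369, median of the 10 differences -0.24, mean -0.71 with a pseudocount of 0.1). The epidermal mean was lowest in its own line too, at 1.70 in S8, against 2.25 and 2.21 in 16-6, 2.25 and 2.26 in 32 and 2.03 in T2, and the difference was -0.48 (replicate SD 0.0198). The median of the 10 epidermal differences was -0.10, so the mean rested on a few genes. The stomach mean was 0.27 in T2 and between 0.21 and 0.40 in the other iPSC libraries, and the difference of -0.02 was smaller than the replicate SD of 0.0608.

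**Figure D2:**
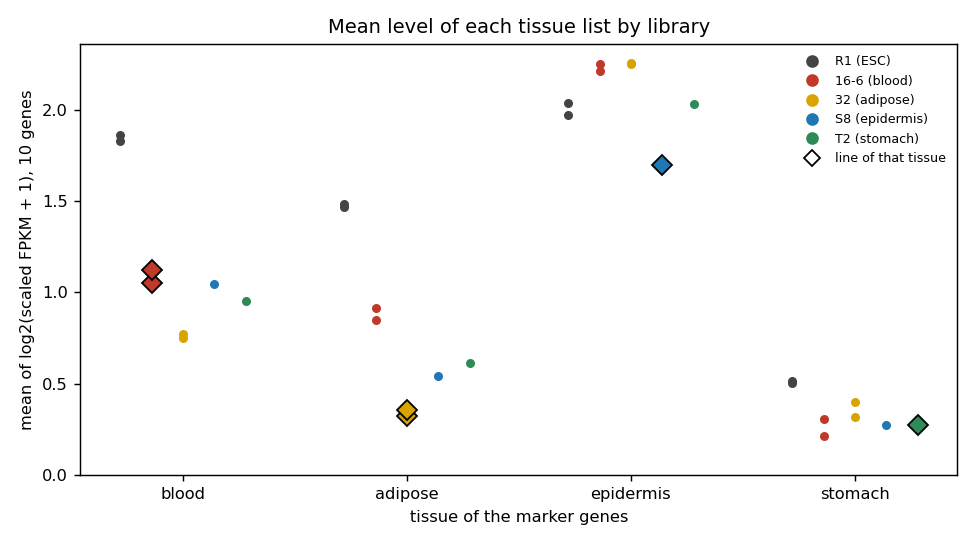
Mean of log2(scaled FPKM + 1) over the 10 marker genes of each tissue (vertical axis), with 1 point per library and the line of that tissue drawn as a diamond. Adipose genes are lowest in line 32 (0.32 and 0.36) and epidermal genes in S8 (1.70), and R1 is highest for blood, adipose and stomach genes.

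Each iPSC line was then compared with the mean of the other 3, gene by gene, with limma and Benjamini-Hochberg adjustment over the 13693 genes that reached a level of 1. A gene was called when its adjusted p was below 0.05 and its log2 difference at least 1 in size. For the own line, 2 of the 7 blood genes tested were called higher in 16-6 and 0 lower, against 7.55% and 1.18% of all genes. Of the 5 adipose genes tested, 0 were called higher and 1 lower in 32, against 1.67% and 5.15% of all genes. Of the 6 epidermal genes tested, 0 were called higher and 2 lower in S8, against 2.67% and 3.18% of all genes, and of the 2 stomach genes tested, 0 were called in either direction in T2, against 0.409% higher and 0.833% lower. The share of higher genes among all calls depended on the scaling for 32, being 24.4% here, 34.8% after quantile normalization and 8.4% with library totals made equal, and for T2, being 32.9% here and 69.7% with library totals made equal.

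**Figure D3:**
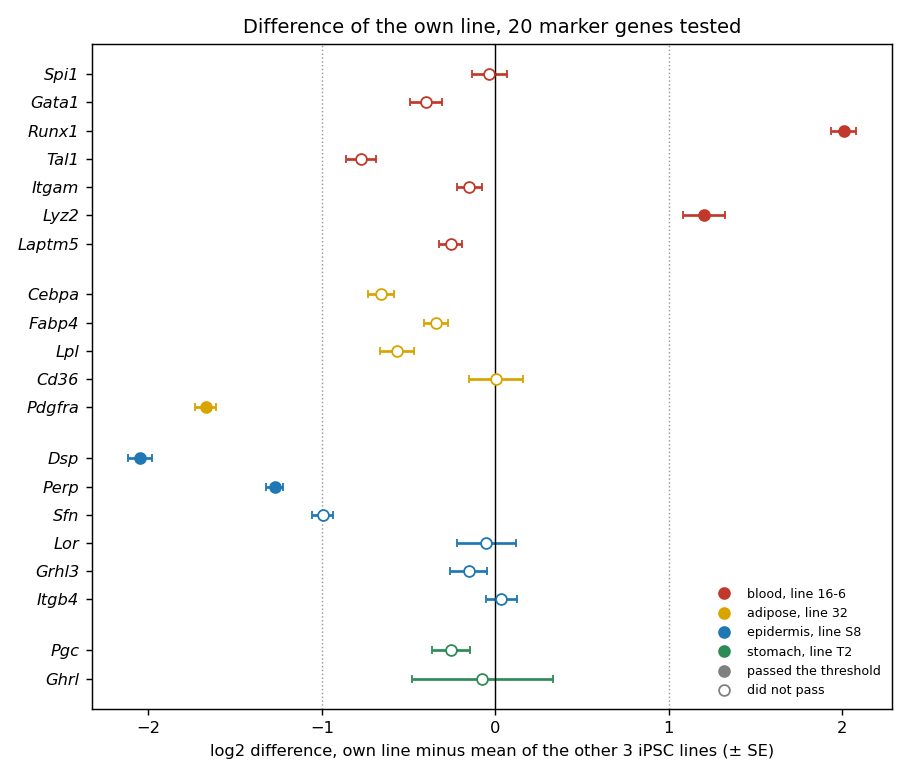
Difference of the own line from the mean of the other 3 iPSC lines, as log2(scaled FPKM + 1), for the 20 marker genes that reached a level of 1 in some library. Points are limma estimates, bars are ± 1 SE, filled points passed the threshold and dotted lines mark a log2 difference of 1 in size. Runx1 and Lyz2 lie above the threshold in 16-6, and Pdgfra in 32 and Dsp and Perp in S8 lie below it.

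Among the blood genes, Runx1, a transcription factor required for the emergence of hematopoietic stem cells, was highest in 16-6. The gene lies on chr16:92601711-92826311 of mm9. Its scaled FPKM was 8.55 and 8.51 in 16-6, 5.36 and 5.19 in R1, 0.81 and 1.06 in 32, 1.14 in S8 and 2.23 in T2. Both 16-6 libraries were above all others, R1 came next, and the libraries of 32 and S8 lay close together. The difference of 16-6 from the other iPSC lines was 2.01 (SE 0.072, limma adjusted p = 3.60e-05), and 32 was below its own comparison group by -1.07 (SE 0.072, limma adjusted p = 2.89e-04). The latter was -0.84 after quantile normalization and -0.97 without the first library of 32, and was then not called.

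The other blood transcription factors were not highest in 16-6. Tal1, a factor that specifies blood stem cells, had 1.91 in S8 and 1.79 in T2, and between 0.133 and 0.563 in the other libraries, so that S8 and T2 did not overlap with the rest. S8 and T2 were also the libraries for which the study lists more mapped reads. Its difference from R1 was 1.25 in S8 (SE 0.119, limma adjusted p = 6.49e-04) and 1.19 in T2 (SE 0.119, limma adjusted p = 0.001). Gata1, the factor of the red cell lineage, had 1.74 in S8, 0.929 and 1.31 in R1 and between 0.406 and 0.64 in the other libraries, and its difference of 0.86 in S8 did not reach the threshold. Spi1 (PU.1), the factor of myeloid and B cells, had 1.47 and 1.11 in R1 and between 0.157 and 0.327 in the iPSC lines, which overlapped among themselves. Slc4a1, the anion exchanger of the red cell membrane, had 0.473 and 0.331 in 32 and at most 0.0865 elsewhere, and did not enter the test.

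The genes of white blood cells were highest in R1. Lyz2, the lysozyme of macrophages and neutrophils on chr10:116714597-116719328, had 44.5 and 48.9 in R1, 3.25 and 4.45 in 16-6, 0.167 and 0.0831 in 32, 1.26 in S8 and 2.61 in T2. Among the iPSC lines 16-6 was thus highest and 32 lowest, the latter with 2 and 1 fragments, while all were far below R1. The difference of 16-6 from the other iPSC lines was 1.20 (SE 0.119, limma adjusted p = 7.79e-04) and that of 32 was -1.60 (SE 0.119, limma adjusted p = 3.83e-04). Against R1 the log2 difference was -3.31 in 16-6, -5.41 in 32, -4.40 in S8 and -3.72 in T2, each with a limma adjusted p of 2.04e-04 or less. Lyz2 has a close paralogue, Lyz1, and how the counting divided reads between them is not given in the sources used here.

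Itgam, the CD11b chain of the macrophage integrin, had 2.05 and 1.99 in R1 and between 0.137 and 0.425 in the iPSC libraries. Its log2 difference from R1 was -1.35 in both 16-6 and 32, -1.08 in S8 and -1.17 in T2, and all 4 passed the threshold, although those of S8 and T2 did not after quantile normalization (-0.85 and -0.96). Laptm5, a lysosomal membrane protein of blood cells, had 25.6 and 29.5 in R1, 9.14 and 9.48 in 16-6, 16.5 and 17.2 in 32, 14.5 in S8 and 5.76 in T2. It was therefore lower in the line of blood origin than in 32 or S8, and the fall from R1 passed the threshold in 16-6 (-1.47) and T2 (-2.07). T2 was also below the other iPSC lines, by -1.07 (SE 0.085, limma adjusted p = 0.003), or -0.82 and not called with library totals made equal. Ptprc, the pan-leukocyte CD45, stood at 0.324 and 0.406 in R1 and at most 0.0961 in the iPSC lines, and Csf1r, the receptor for macrophage colony-stimulating factor, at 0.448 and 0.874 in R1 and at most 0.346 in the iPSC lines.

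Markers of other cell types were set beside Runx1 and Lyz2. A list of 10 fibroblast markers, such as the collagens Col1a1 and Col3a1, summed to 1576 and 1557 in 16-6, 866 and 894 in R1, 535 in T2, 373 in S8 and 63.9 and 63.4 in 32. This order of the lines was that of Runx1, but single markers went both ways between 16-6 and R1. Of the 10, 4 were called higher and 2 lower in 16-6 than in R1, against 3.58% and 3.53% of all genes. Against the other iPSC lines, 9 of the 10 fibroblast markers were called higher in 16-6 and 9 lower in 32, where 7.55% and 5.15% of all genes were called. A list of 10 macrophage markers, chosen after the values of Lyz2 had been seen, summed to 40.1 and 40.3 in R1 and to between 11.9 and 15.5 in the iPSC libraries. Of its 10 genes, 9 were highest in R1, against 22.0% of all genes. The macrophage sum varied little among the iPSC lines, where Lyz2 was highest in 16-6 and lowest in 32. Gene by gene, 16-6 was the highest iPSC line for 5 of the 10, against 22.8% of all genes, and 32 for 0, against 20.4%. Their mean on the log2 scale was 0.69 and 0.64 in 16-6, 0.42 and 0.48 in 32, 0.60 in S8 and 0.67 in T2. Of the 7 tested, 0 were called in 16-6 or in 32 against the other iPSC lines. Emr1, the macrophage antigen F4/80, had 3.22 and 3.46 in R1, at most 0.13 in 16-6, S8 and T2, and 0 in both libraries of 32. The part of fibroblasts and macrophages in the levels of Runx1 and Lyz2 was not tested.

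**Figure D4:**
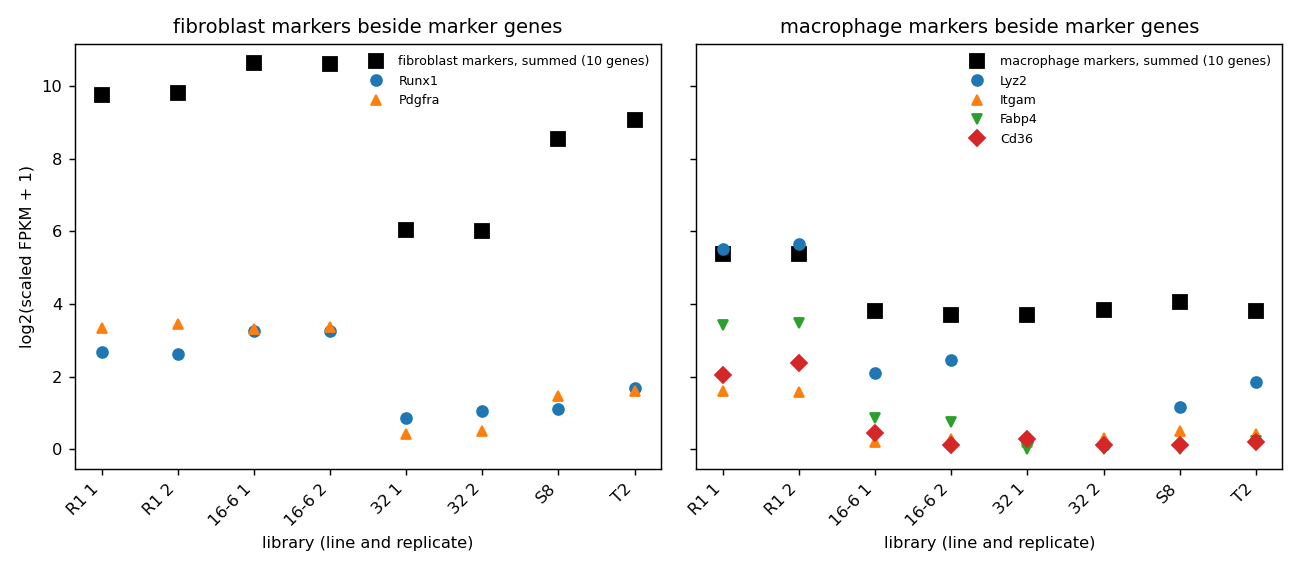
Summed level of 10 fibroblast markers (left) and 10 macrophage markers (right) as black squares, with marker genes of blood and adipose tissue as coloured symbols, in each of the 8 libraries (horizontal axis). The vertical axis is log2(scaled FPKM + 1). Runx1 and Pdgfra are low where the fibroblast sum is low (63.9 and 63.4 in line 32), and Lyz2, Itgam, Fabp4 and Cd36 are highest in R1, where the macrophage sum is 40.1 and 40.3.

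Of the adipose genes, Pdgfra, the PDGF receptor of adipocyte progenitors and of fibroblasts, was lowest in the line made from adipocyte progenitors. The gene lies on chr5:75548316-75594229 of mm9. Its scaled FPKM was 0.345 and 0.413 in 32, 8.82 and 9.22 in 16-6, 9.18 and 9.92 in R1, 1.76 in S8 and 2.05 in T2. The libraries of 16-6 overlapped with those of R1, and those of 32 were below all others. Line 32 differed from the other iPSC lines by -1.67 (SE 0.062, limma adjusted p = 6.10e-05), and 16-6 by 2.15 (SE 0.062, limma adjusted p = 1.99e-05). A list of 10 primitive endoderm markers summed to 25.1 and 28.5 in R1, 24.3 and 24.2 in 16-6, 5.96 and 5.68 in 32, 9.65 in S8 and 11.3 in T2. Pdgfra itself is 1 of the 10, so these sums include its own values. Of the 6 tested, 2 were called lower in 32 against the other iPSC lines, Pdgfra among them, and 0 higher, against 5.15% and 1.67% of all genes. Foxa2, also on the list, was higher in 32 (0.813 and 0.848) than in 16-6 (0.423 and 0.439), and so was Gata4. The fibroblast sum was lowest in 32 too, and higher in 16-6 than in R1, and the part of either list in the level of Pdgfra was not tested.

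Pparg, the master regulator of fat cell formation, did not reach 1 in any library. It had 0.894 and 0.931 in R1, 0.596 and 0.704 in 16-6, 0 and 0.0518 in 32, 0.18 in S8 and 0.0841 in T2, so that 32 was again lowest. Cebpa, which acts with Pparg, had 0.296 and 0.31 in 32 and between 0.984 and 1.27 in all other libraries, and its difference of -0.66 in 32 (SE 0.075, limma adjusted p = 0.001) was too small to be called. Ebf2, a factor of brown fat precursors, ran between 0.407 and 0.555 in R1 and 16-6 and between 0.0743 and 0.168 in 32, S8 and T2. Ppargc1a, the coactivator of mitochondrial genes in brown fat, stayed at or below 0.0895.

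The genes of lipid uptake were highest in R1, apart from Lpl. Fabp4, the fatty acid binding protein of fat cells and macrophages, had 9.70 and 10.1 in R1, 0.823 and 0.667 in 16-6, 0.173 in T2, and was at 0 in S8 and both libraries of 32. Cd36, a fatty acid transporter of the same cell types, had 3.12 and 4.23 in R1 and between 0.0744 and 0.365 in the iPSC libraries. For both genes the R1 libraries lay above all iPSC libraries, and the fall from R1 passed the threshold in every iPSC line. On the log2(scaled FPKM + 1) scale it was between -3.45 and -2.64 for Fabp4 and between -2.10 and -1.94 for Cd36, and it understates the change of genes at or near 0. Lpl, the lipoprotein lipase, had 4.96 and 4.94 in R1, 2.48 and 2.94 in 16-6, 2.16 and 2.75 in 32, 4.31 in S8 and 5.73 in T2, and its difference of -0.57 in 32 did not reach the threshold. The fat cell products Adipoq (adiponectin) and Plin1 (perilipin, the coat of lipid droplets) had at most 7.0 and 2.3 fragments in any library, and Adipoq was at 0.234 and 0.391 in 32 against 0.506 and 0.203 in R1.

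Of the epidermal genes, Dsp, Perp and Sfn had the highest levels, and among the iPSC lines all 3 were lowest in S8, the line of epidermal origin. Sfn was lower still in R1. S8 was the lowest iPSC line for 4 of the 10 genes, Dsp, Perp, Sfn and Dsg3, against 18.7% of all genes. Dsp encodes desmoplakin, which anchors desmosomes to keratin filaments, and Perp a desmosome component and p53 target. Sfn encodes 14-3-3 sigma, an epithelial cell cycle inhibitor. To set the promoters of 2 well expressed genes with their lowest iPSC level in S8 beside that of a gene at 0 everywhere, the 250 bases before the start sites of Dsp (chr13:38151044-38151293, plus strand), Sfn (chr4:133602169-133602418, minus strand) and Gkn1 (chr6:87350916-87351165, minus strand) are given from RefSeq on GRCm38.p6, with each CG dinucleotide in capitals.
Dsp: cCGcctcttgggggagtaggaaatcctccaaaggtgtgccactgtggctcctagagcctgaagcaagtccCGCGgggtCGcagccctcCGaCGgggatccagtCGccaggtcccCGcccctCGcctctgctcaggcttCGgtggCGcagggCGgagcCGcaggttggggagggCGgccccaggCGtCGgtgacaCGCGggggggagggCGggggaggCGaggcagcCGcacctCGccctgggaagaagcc
Sfn: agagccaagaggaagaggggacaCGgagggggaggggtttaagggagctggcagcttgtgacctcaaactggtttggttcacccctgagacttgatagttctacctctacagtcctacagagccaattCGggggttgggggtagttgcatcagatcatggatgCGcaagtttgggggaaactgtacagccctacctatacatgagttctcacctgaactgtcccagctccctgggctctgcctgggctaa
Gkn1: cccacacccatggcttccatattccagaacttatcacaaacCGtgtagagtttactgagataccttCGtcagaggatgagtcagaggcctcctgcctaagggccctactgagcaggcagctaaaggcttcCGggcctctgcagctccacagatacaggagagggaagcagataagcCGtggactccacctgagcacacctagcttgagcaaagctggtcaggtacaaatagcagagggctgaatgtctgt

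The Dsp sequence held 22 CG, a number that 16.3% of the 27025 genes in the table reached. The Sfn sequence held 3, reached by 72.0%, and the Gkn1 sequence 4, reached by 63.9%. CG was counted on 1 strand, since the motif reads the same on both. For a gene with several start sites, the sequence with the most CG was taken. The median over all genes was 6. Promoters were found for 26 of the 40 marker genes, and the median was 5 CG for the 15 that reached a level of 1 and 4 CG for the 11 that did not. Sfn, the highest of the 40 genes, and Gkn1, at 0, had similar CG numbers, and Dsp, also well expressed, had 22. These promoters were chosen by name, and a relation of CG number to level was not tested.

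Dsp, on chr13:38243163-38290446 of mm9, had a scaled FPKM of 1.79 in S8, 4.67 and 4.59 in R1, 7.35 in T2, 11.7 and 11.8 in 16-6 and 12.9 and 14.1 in 32. S8 was lowest by a wide margin, and R1 lay below the other 3 iPSC lines. The difference of S8 from the other iPSC lines was -2.05 (SE 0.068, limma adjusted p = 1.61e-04), and 32 was higher than its own comparison group by 1.12 (SE 0.054, limma adjusted p = 1.18e-04). With library totals made equal the latter was 0.81 and no longer called.

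Perp had 14.4 in S8, 27.7 in T2, 31.3 and 33.0 in R1 and between 40.6 and 41.7 in 16-6 and 32. The difference of S8 was -1.27 (SE 0.047, limma adjusted p = 1.81e-04), and the 4 libraries of 16-6 and 32 overlapped. Sfn had 31.6 and 31.4 in R1, 49.8 in S8, 79.1 in T2, 114 and 107 in 16-6 and 112 and 120.4 in 32. S8 was again the lowest iPSC line, but above R1, and its difference from the other iPSC lines, -0.995 (SE 0.06, limma adjusted p = 3.91e-04), lay just short of the threshold. As S8 was 1 library, these 3 values had no replicate of their own and were set against the spread of the replicated lines.

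The genes of the cornified envelope and of the basal layer differed from this pattern. Lor, encoding loricrin, the main protein of the cornified envelope, had 0.835 and 1.43 in R1, 3.75 and 3.20 in 16-6, 2.04 and 1.92 in 32, 2.73 in S8 and 3.34 in T2, with at most 30 fragments. All iPSC libraries were above R1, and the difference was called in 16-6 (1.08, SE 0.153) and T2 (1.04, SE 0.188). Without the first R1 library these were 0.88 and 0.83, and neither was called, and the former was 0.99 and not called without the first library of 16-6. Grhl3, a factor of barrier formation, had 8.91 and 8.94 in 32, 7.21 and 7.88 in R1, 3.92 and 3.17 in 16-6, 4.49 in S8 and 4.07 in T2, so that 32 and R1 were separate from the rest. Itgb4, the integrin of hemidesmosomes, had 3.42 and 3.75 in R1 and between 1.17 and 1.65 in the iPSC libraries. The fall of Itgb4 from R1 was called in 32 (-1.01, SE 0.081), but not after quantile normalization (-0.61) nor without the second library of R1 (-0.96) or of 32 (-0.95).

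The defining genes of the epidermis were near 0. Trp63, the master regulator of stratified epithelia, did not exceed 0.0841, with at most 2.0 fragments, and had 0.0728 in S8. The desmosomal cadherins Dsg3 and Dsc3 did not exceed 0.0668 and 0.196, and the keratins Krt5 and Krt14 of the basal layer, from a wider list, had 0.14 and 0.32 in S8 and up to 0.35 and 0.71 in R1. Ivl, encoding involucrin, a precursor of the cornified envelope, was at 0 in S8 and T2, at 0.0713 and 0.136 in 32 and between 0.376 and 0.686 in 16-6 and R1.

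The stomach genes were the least expressed. Tff1 and Tff2, the trefoil peptides of the mucous layer, and Gkn1 and Gkn2, the gastrokines of surface mucous cells, were at 0 in every library. Muc5ac, the gastric mucin, had 1 fragment in 4 libraries, of which T2 was 1, and Cldn18, a tight junction protein of the stomach, was above 0 only in the second R1 library, at 0.0256. Atp4a, the catalytic subunit of the gastric proton pump, had 0.921 and 0.738 in R1, 0.682 in T2 and between 0.45 and 0.596 in the other libraries, so that T2 came first among the iPSC lines with 28.0 fragments. Gif, the intrinsic factor for vitamin B12, was at 0 in T2 and at most 0.199 elsewhere.

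Of the genes tested, Pgc, encoding pepsinogen C, had 3.68 and 3.10 in R1, 3.76 and 3.34 in 32, 1.39 and 1.26 in 16-6, 1.42 in S8 and 1.46 in T2. R1 and 32 overlapped with each other and lay above the other libraries, and the difference of T2 from the other iPSC lines was -0.26 (SE 0.108, limma adjusted p = 0.136). Ghrl, encoding the hormone ghrelin, had 2.50 and 2.64 in R1, 0.193 and 1.39 in 16-6, 1.08 and 0.413 in 32, 0.675 in S8 and 0.606 in T2, and the replicates of 16-6 and 32 spanned the values of S8 and T2. The difference of T2 was -0.08 (SE 0.406, limma adjusted p = 0.905), on 3.0 fragments in that library.

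Each iPSC line was also compared with R1. Of the 20 tested, 3 were called higher and 5 lower in 16-6, against 3.58% and 3.53% of all genes, and 2 higher and 7 lower in 32, against 1.54% and 8.23%. In S8, 1 was called higher and 8 lower, against 6.93% and 9.74% of all genes, and in T2, 3 higher and 6 lower, against 3.95% and 6.54%. The genes called lower in all 4 lines were Lyz2, Itgam, Fabp4 and Cd36. Of these, Itgam, Fabp4 and Cd36 had entered the test through R1 alone, so that their lower calls follow in part from the filter and the counts of lower genes are no measure of direction. The genes called higher in any line were Dsp, Sfn, Lor and Tal1. Sfn was higher by 1.78 in 16-6 (SE 0.054), 1.85 in 32 (SE 0.054) and 1.30 in T2 (SE 0.067), each with a limma adjusted p of 2.59e-04 or less, and by 0.65 in S8, short of the threshold. These comparisons share the R1 libraries. The share of higher genes among all calls was 15.8% in 32, against 34.0% after quantile normalization and 5.31% with library totals made equal, and with equal totals it moved from 41.6% to 29.6% in S8 and from 37.6% to 48.4% in T2.

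Counted without a test over all 40 genes, 22 were highest in R1 among the 5 lines, namely 6 blood, 8 adipose, 4 epidermal and 4 stomach genes, against 22.0% of all genes. Both R1 libraries lay above all 6 iPSC libraries for 15 of the 40 genes, against 14.1% of all genes, and below all 6 for 3 of them (Tal1, Sfn and Lor), against 9.11%. By tissue the 15 were 6 blood, 4 adipose, 2 epidermal and 3 stomach genes. The macrophage markers were highest in R1 too, as given above, and their part in this count was not tested.

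Over all 20 genes tested and all tissues, 3 were called higher and 0 lower in 16-6 against the other iPSC lines, where 7.55% and 1.18% of all genes were called. In 32, 1 was called higher and 3 lower, where the shares were 1.67% and 5.15%. In S8, 0 were called higher and 2 lower, where they were 2.67% and 3.18%, and in T2 0 higher and 1 lower, where they were 0.409% and 0.833%. Between the replicated lines, 3 genes were called higher in 16-6 than in 32 and 1 lower, against 9.22% and 1.09% of all genes. These were Pdgfra, with a difference of 2.86 (SE 0.07), Runx1, with 2.30 (SE 0.082), Lyz2, with 2.10 (SE 0.135), and, in the other direction, Grhl3, with -1.13 (SE 0.097), each with a limma adjusted p of 5.43e-04 or less. With library totals made equal, that of Grhl3 was -0.84 and not called. The adipose marker Pdgfra was thus higher in the line of blood origin, and the epidermal marker Grhl3 in the line of adipose origin.

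Wider lists of 24 other genes per tissue were counted in the same fit. Of the blood list, 12 were tested and 2 called higher and 0 lower in 16-6, against 7.55% and 1.18% of all genes. Hoxa9, a homeobox gene of blood progenitors, had 2.01 and 1.76 in 16-6 and 0.14 or less in the other iPSC lines, a difference of 1.38 (SE 0.08, limma adjusted p = 1.55e-04). Cd34, an antigen of blood progenitors and of endothelium, had 7.86 and 7.40 in 16-6, between 1.20 and 4.18 in the other iPSC libraries, and 26.6 and 27.3 in R1. Its difference in 16-6 was 1.19 (SE 0.061, limma adjusted p = 1.09e-04). The 10 endothelial markers summed to 26.8 and 26.4 in 16-6 and to between 25.1 and 46.1 elsewhere. The fibroblast sum was highest in 16-6 too, where 9 of the 10 markers were called higher, against 7.55% of all genes. Cd34 did not follow that sum in R1, where it was above 16-6 while the fibroblast sum was below. Single fibroblast markers went both ways there, with 4 called higher and 2 lower in 16-6 than in R1, against 3.58% and 3.53% of all genes. The part of fibroblasts in the levels of Hoxa9 and Cd34 was not tested. Hbb-b1, a beta globin, was at 0 in every library, and Kit, the receptor by which the donor cells had been selected, was lower in 16-6 (12.9 and 14.1) than in 32 (29.9 and 33.2).

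Of the adipose list, 16 were tested and 0 called higher and 3 lower in 32, against 1.67% and 5.15% of all genes. Cebpb, an early factor of fat cell formation, had 2.51 and 2.43 in 32 and between 13.3 and 25.8 in the other iPSC libraries, a difference of -2.54 (SE 0.111, limma adjusted p = 9.10e-05). Ly6a (Sca-1), an antigen of stromal progenitors, differed by -1.51 (SE 0.083, limma adjusted p = 1.64e-04), with the fibroblast sum lowest in the same line and its part not tested, and Cebpd, which acts beside Cebpb, by -1.07 (SE 0.086, limma adjusted p = 4.70e-04). Of the epidermal list, 23 of 24 genes were found and 15 tested, with 0 called higher and 1 lower in S8, against 2.67% and 3.18% of all genes. The gene called was Sprr1a, a small proline-rich protein of the cornified envelope (-1.41, SE 0.102, limma adjusted p = 5.64e-04). Unlike the 10 markers, however, the wider epidermal genes were not low in S8 on the whole. S8 was the highest iPSC line for 10 of the 23, against 25.6% of all genes, and the median difference of those tested was 0.31 in S8, against 0.03 over all genes tested. This was not particular to the epidermal list. S8 was also highest for 10 of the 24 wider adipose genes, 9 of the 24 blood genes and 7 of the 24 stomach genes. The median differences of those lists in S8 were 0.20, 0.15 and -0.015. Of the stomach list, 12 were tested and 0 called in either direction in T2, against 0.409% higher and 0.833% lower of all genes.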

How the data were processed

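Total RNA of R1 and of 4 secondary iPSC lines had been sequenced, and 8 tables of 22878 gene entries were used, 1 per library. Per the labels, the authors mapped reads to mm9 with TopHat2 2.0.4 and Bowtie and ran Cufflinks 2.0.0 to obtain the FPKM that were deposited, each with its upper and lower limit. The methods of the study give another version of Cufflinks, call the unit RPKM and state that uniquely matching alignments were kept. The sum of all FPKM in a library was far above that usual for the unit, and the cause is not given in the sources used here. All values were divided by 12725.7, which left ratios unchanged. To estimate the fragments behind a value, 2 × FPKM was divided by the distance to the upper limit and squared, an approximation for genes with several isoforms. Depth limits cover counting error only. Starts, counted from 0 in the files, are given counted from 1.

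The 13693 entries that reached 1 in some library were fitted as log2(scaled FPKM + 1) with limma 3.58.1 in R 4.3.3 (lmFit, eBayes with trend) in 5 groups, with the spread taken from R1, 16-6 and 32. S8 and T2 were assumed to vary like these. P-values were adjusted by Benjamini-Hochberg over all entries tested, and calls needed an adjusted p below 0.05 together with a log2 difference of 1 or more in either direction. A difference on this scale understates the change of low genes. The fit was tested on simulated data.

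The marker genes and wider lists were chosen with earlier results of these data known. Every marker that reached 1 is given in every library or by its range, and from each wider list up to 3 called genes with the largest differences. Kit, Krt5, Krt14, Hbb-b1 and Emr1 were named after their values had been seen. Alternatives were a pseudocount of 0.1, other filters, quantile normalization, equal library totals, no trend, no fold minimum, each replicate left out, a replicate block and, chosen after seeing the data, the 16-6 libraries averaged and counted as 1 sample. Same-numbered replicates did not deviate together (correlations over genes of -0.097, 0.001 and 0.028) and were not treated as pairs.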

Additional observations from a re-analysis of the deposited data

Results flagged for a closer look

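Dsp, encoding desmoplakin, moved away from R1 in opposite directions in different iPSC lines. It was higher than R1 by 1.18 in 16-6 and by 1.36 in 32, and lower by -1.01 in S8, all on the scale of log2(scaled FPKM + 1). The difference between S8 and the other 3 iPSC lines was itself tested and was -2.05 (SE 0.068, limma adjusted p = 1.61e-04). S8 was 1 library, with 201.0 fragments for Dsp, and after quantile normalization its difference from R1 was -0.77 and not called.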

How the results depend on the processing

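Of 49 differences of single marker genes that were called, none reversed in 688 alternative values, and 674 values stayed called. Part of this was fixed in advance. Without a fold minimum no call could be lost, and the fit of 6 libraries without a block repeated the numbers of calls of the main fit. The other 14 values, of 10 differences, fell below a log2 difference of 1. Of these, 5 were after quantile normalization, 3 with equal library totals and 6 with a replicate left out. The cause was not tested. A pseudocount of 0.1 enlarges differences of low genes, and called 1909, 1733, 1465 and 343 genes in 16-6, 32, S8 and T2 against the other iPSC lines, and 1690, 2258 and 2198 in 16-6, 32 and T2 against R1. Called marker genes were then 6, 8, 7 and 2 against the other iPSC lines, 13 in 16-6 against R1 and 7 between 16-6 and 32. Without a minimum fold, 8883, 8700, 7874 and 3969 genes were called in 16-6, 32, S8 and T2 against the other iPSC lines, 7610, 8428, 9127 and 7932 against R1 and 8265 between 16-6 and 32. Marker genes were then 14, 15, 9 and 4, then 16, 17, 16 and 16, and 10. With equal totals, which moved the median difference of all genes in 32 to -0.32 and in T2 to 0.26 against the other iPSC lines, 0 marker genes were called in T2.

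The mean of the blood genes in 16-6, relative to the other iPSC lines, was 0.078 after quantile normalization and 0.01 with genes scaled to unit SD, and the median of the 10 differences was -0.094. That of the adipose genes in 32 was -0.71 with pseudocount 0.1, -0.26 after quantile normalization, -0.40 with equal totals and -0.76 in units of SD, and the median was -0.24. That of the epidermal genes in S8 was -0.63, -0.45, -0.51 and -0.75, and the median -0.10. Genes highest in the own line numbered 0 for adipose tissue, epidermis and stomach among those that reached 1. After quantile normalization, which gives entries at 0 a small value that differs by library, they numbered 2, 2 and 0. Requiring every library of the line above every other gave 0 for epidermis and 1 for stomach. With a replicate left out the count ran from 1 to 2 for adipose tissue (2 without the first 16-6 library), from 0 to 1 for epidermis (0 without the second library of 32) and from 1 to 2 for stomach (1 without the first library of 32).

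With a replicate block, fitted on R1, 16-6 and 32, 965, 1339 and 1410 genes were called in 16-6 against R1, 32 against R1 and 16-6 against 32, and 8, 9 and 4 marker genes, against 974, 1338 and 1412 genes without it, and it changed no other call of a marker gene. Levels near 0 were limited by depth.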

Other observations

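Krt8 and Krt18, the keratin partners of simple epithelia such as the stomach lining, stood out of the wider stomach list, and were singled out after their values had been seen. Krt8 had a scaled FPKM of 8.89 and 7.55 in R1, 87.7 and 89.7 in 16-6, 68.8 and 71.2 in 32, 17.0 in S8 and 70.0 in T2. All iPSC libraries were above R1, and S8 was far below the other iPSC lines, by -2.09 (SE 0.084, limma adjusted p = 2.01e-04). Krt18 had 7.34 and 8.69 in R1, 57.3 and 58.5 in 16-6, 48.8 and 41.3 in 32, 30.1 in S8 and 65.4 in T2. Its difference from R1 was called in every iPSC line, from 1.79 in S8 to 2.88 in T2, while that of Krt8 in S8, at 0.97, was not called. S8 was thus the lowest iPSC line for both keratins, as it was for Dsp, Perp and Sfn. Other epithelial genes of the list were not low in S8. Epcam was highest there, at 262, against 222 in T2, 160 and 167 in 32 and 139 in both 16-6 libraries. Cdh1 had 270 in S8, below T2 (322) and above 16-6 and 32. Over the 24 genes, S8 was the highest iPSC line for 7 and the lowest for 4, against 25.6% and 18.7% of all genes.

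In the wider blood list, Tyrobp and Fcer1g, the signalling adaptors of myeloid cells, were highest in R1. Of the 24 genes on that list, 8 were highest in R1, against 22.0% of all genes. Among the rest, 7 were highest in S8, 4 in 16-6, 3 in T2 and 1 in 32. Tyrobp had 4.17 and 2.70 in R1, 0.274 in S8 and 0 in every other library. Fcer1g had 5.45 and 6.24 in R1 and at most 0.939 in the iPSC libraries. Both reached a level of 1 in R1 alone, and so entered the test only through the line where they are high.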
